A study of Gallus gallus with 8 samples.

Results

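The transcription factors CEBPA, CEBPB, PROX1, CREB3L3 and XBP1, all known from liver cells, were followed in chicken yolk sac endoderm. They were taken from a list of 6 gene symbols, matched to the probe annotation of the Affymetrix Chicken Genome Array. The match gave 7 probe sets (reporters of a transcript) for 5 genes, of 38439 probe sets and 13009 genes with a symbol of their own. ONECUT1, the other gene of the list, was not analysed here. CEBPA and XBP1 had 2 probe sets each, and each gene is described by the brighter of them. The second probe set of CEBPA, with a mean signal of 8.82, lay under the lowest mean signal admitted to the tests, 9.964, and the other 6 were tested.

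The yolk sac endoderm is the epithelium that lies on the yolk, and it makes plasma proteins and lipoproteins before the liver does. The 8 arrays stand for embryonic days 1, 2, 3 and 4, with 2 total RNA samples a day from fertilized eggs incubated to that day, with no agent given; the labels used here name no strain. Each sample pooled tissue gathered through the day, and the endoderm had been peeled from the mesoderm after dispase, a protease. The source name of the day 1 samples says yolk sac without endoderm, while their titles and tissue label say endoderm. Nothing says whether the 2 pools of a day came from separate eggs. The p-values thus weigh changes against a spread between these samples that may be technical. The fit shares that spread over the 4 days and draws it toward that of other probe sets. Fewer cells of a type cannot be told apart from less RNA per cell.

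The regulators act at different points of the secretory programme of a liver-type cell. CEBPA and CEBPB are leucine zipper factors that bind promoters of plasma protein and metabolic genes, and CEBPB (chicken NF-M) also serves in myeloid cells. PROX1 is a homeobox factor of early hepatocytes, of lymphatic endothelium, of the heart and of the nervous system. CREB3L3 and XBP1 are tied to the endoplasmic reticulum (ER): CREB3L3 is made as an ER membrane protein that is cut to release a factor for lipid and acute phase genes, and XBP1 becomes an active factor of the unfolded protein response after the kinase ERN1 (IRE1) has its mRNA spliced.

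Values are given as the deposited signals, in arbitrary units. Changes are log2 differences of signal + 16 after quantile normalization, which gives each array the same distribution, with their SE and a p-value from limma adjusted over 23063 probe sets. Normalization was needed because the trimmed mean signal ran from 76.31 to 169.8 over the arrays, with day 1 replicate 2 the brightest. Before it the median change of all probe sets from day 1 to day 4 was -0.55, against -0.01 after normalization, so the deposited change is given where it alters a call. The ratio of 3' to 5' signal of beta-actin, which rises as RNA is degraded, was 2.907 and 1.498 at day 1, 1.744 and 3.765 at day 2, 2.625 and 3.362 at day 3, and 4.3 and 3.22 at day 4. Both arrays of day 4 were thus above both of day 1, and its part in the differences between them was not tested.

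Markers of the labelled tissue were abundant on all arrays. The summed signal of 9 yolk sac endoderm markers was 27890 to 30890 on day 1 and 41260 to 47550 on day 4; the retinol carrier gene RBP4 was under 9.964 on every day, and AFP on day 1. Of 8 tested, 6 rose from day 1 to day 4 and 0 fell (4 and 0 as deposited), where 13% of all genes rose, or 4.61% as deposited. AFP, AMN and DAB2 were among them, while TTR and APOA1 did not pass (adjusted p = 0.722 and 0.13). A pair of arrays stood apart: the summed signal of 11 mesoderm markers was 16220 on day 2 replicate 1 and 6199 at day 3 replicate 1, against 509.2 and 499.5 on the other arrays of those days, 2677 and 5333 at day 1, and 526.5 and 373.5 at day 4. The summed signal of 6 erythroid markers was 842.8 to 2976 on day 1 and 11150 to 40040 on the later days. Changes whose call depended on the mesoderm-rich arrays are given with and without them.

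Between day 1 and day 4, 4 of the 5 regulators rose and 0 fell. They were CEBPA, CEBPB, PROX1 and CREB3L3, with rises of 2.60-fold to 3.28-fold on the scale of normalized signal + 16. For comparison, 13% of all genes rose and 16.4% fell, each gene taken by its brightest probe set. As deposited, CEBPB, PROX1 and CREB3L3 rose and XBP1 fell, where 4.61% of genes rose and 33.8% fell. In a fit without day 1 replicate 2, which keeps 1 array of that day and called fewer probe sets at large, CEBPB alone kept its call. The changes of CEBPA and CREB3L3 were 1.381 and 1.534 there. Without both arrays rich in mesoderm markers 3 were called, CEBPA being the one lost (adjusted p = 0.0581).

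**Figure D1:**
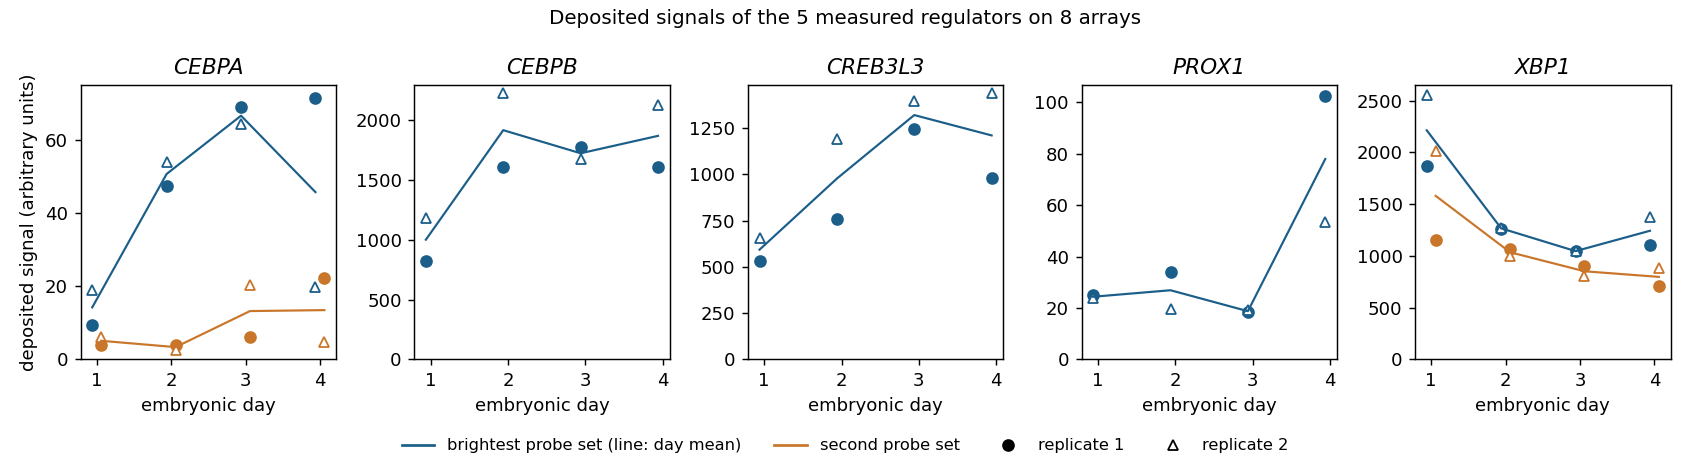
Deposited signal in arbitrary units (y axis, starting at 0, a scale for each gene) by embryonic day (x axis) for each regulator; filled circles are replicate 1, open triangles replicate 2, lines join day means, blue is the brighter and orange the second probe set. CEBPB lies between 823.9 and 1178 at day 1 and at 1608 or more on every later array, PROX1 is at 53.38 and 102.6 at day 4 only, and both XBP1 probe sets are highest on day 1.

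CEBPB was higher on every later day than on day 1 after normalization, and on day 4 as deposited. Its signals were 823.9 and 1178 at day 1, 1608 and 2224 at day 2, 1772 and 1674 at day 3, and 1609 and 2128 at day 4. Every later array was thus above both arrays of day 1, and days 2, 3 and 4 overlapped each other. From day 1 the normalized change was 1.31 ± 0.21 on day 2 (adjusted p = 0.0106), 1.18 ± 0.21 on day 3 (adjusted p = 0.0055) and 1.503 ± 0.213 on day 4 (adjusted p = 0.00268). On the deposited scale only the change to day 4 passed (0.90 ± 0.30, adjusted p = 0.0366), with adjusted p = 0.0786 on day 2 and 0.0618 at day 3. In order of normalized level the days ran 4, 2, 3 and 1, and the neighbours 4 and 2 (adjusted p = 0.707) and 2 and 3 (adjusted p = 0.829) did not differ beyond their spread. The change to day 4 passed with each array left out in turn, at 1.34 to 1.64. That to day 2 did not pass without day 1 replicate 1 or replicate 2 (adjusted p = 0.0619 and 0.117), nor that to day 3 without day 1 replicate 2 (adjusted p = 0.052).

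CEBPA had a low signal on all arrays. It was 9.49 and 19.05 at day 1, 47.6 and 54.02 at day 2, 69.18 and 64.36 at day 3, and 71.74 and 19.94 at day 4. Days 2 and 3 lay well above day 1 on both arrays, while on day 4 replicate 1 was at the level of day 3 and replicate 2 lay just above the higher array of day 1. The normalized change from day 1 was 1.39 ± 0.42 on day 2 (adjusted p = 0.0956), 1.80 ± 0.42 on day 3 (adjusted p = 0.0157) and 1.38 ± 0.42 on day 4 (adjusted p = 0.0468). The day 2 change passed with the arrays shifted to a common median (1.64 ± 0.40, adjusted p = 0.0453). It also passed with only days 1 and 2 fitted (1.39 ± 0.26, adjusted p = 0.0411). The call on day 3 held on the deposited scale (adjusted p = 0.0197) and that on day 4 did not (adjusted p = 0.111). The day 4 call was not made either with no filter (adjusted p = 0.0863), with a pseudocount of 64 (0.0748), with only these 2 days fitted (0.056), or without either array of day 3 (0.0686 and 0.0691) or of day 1 (0.173 and 0.178). The day 4 change was 2.12 without replicate 2 of that day and 0.67 without replicate 1 (adjusted p = 0.206), so the day 4 replicates disagreed by more than the difference between days 4 and 3 (-0.42 ± 0.42, adjusted p = 0.908). The order of the days was 3, 2, 4 and 1 by normalized level and by deposited means. Neither 3 and 2 (adjusted p = 0.702) nor 2 and 4 (adjusted p = 0.995) could be separated. The call on day 3 did not pass when either array of day 1 or of day 3 was left out (adjusted p = 0.0684 to 0.0881), nor without both mesoderm-rich arrays (1.78, adjusted p = 0.0563). The second CEBPA probe set read 2.683 to 22.23, with its 2 highest signals on day 3 replicate 2 and day 4 replicate 1.

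Because C/EBP factors also act in myeloid cells, leukocyte markers are given beside them. The summed signal of 9 such markers was 268.9 and 478 at day 1 and 309.7 and 486.4 at day 4. Of 8 tested, CD74 and CTSS rose and RUNX1 fell over that interval, where 13% of all genes rose and 16.4% fell. PTPRC, the pan-leukocyte marker CD45, was at 5.74 ± 0.40 (SD, n = 2) and SPI1, the myeloid factor PU.1, at 4.88 ± 4.29 on day 4, both under 9.964. In all, 5 of the 9 markers had a day 4 mean under that signal. CD74 (278.8), IRF8 (51.6), CSF1R (18.38) and CTSS (15.59) lay above it. The rises of CD74 and CTSS passed after normalization only (adjusted p = 0.203 and 0.119 as deposited). As deposited 0 of these markers rose, and RUNX1 and CYBB fell (limma, adjusted p = 0.00494 and 0.0296), where 4.61% of all genes rose and 33.8% fell. The part of leukocytes in the C/EBP signals was not tested.

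PROX1 stayed low through day 3 and rose on day 4. Its signals were 25.02 and 23.79 at day 1, 34.08 and 19.79 at day 2, 18.29 and 19.29 at day 3, and 102.6 and 53.38 at day 4. Both arrays of day 4 stood above all 6 others, which overlapped between days 1 and 2. The change from day 1 was 1.71 ± 0.33 on day 4 (adjusted p = 0.00811; as deposited 1.17 ± 0.36, adjusted p = 0.0265), against 0.35 ± 0.33 on day 2 and 0.06 ± 0.33 on day 3 (adjusted p = 0.578 and 0.912). The rise from day 3 to day 4 was almost as large, 1.65 ± 0.33 with a 95% interval of 0.91 to 2.39. It did not pass the adjustment (adjusted p = 0.415, unadjusted p = 0.000771), and limma called 0 of 23063 probe sets between these days, with 1476 at an unadjusted p under 0.05. The size of the day 4 rise depended on the array: it was 1.28 without replicate 1 of day 4 and 2.18 without replicate 2. In order of normalized level, day 4 was followed by days 2, 3 and 1 (by deposited means 4, 2, 1 and 3), and no neighbours in that order passed, 4 and 2 included (adjusted p = 0.19).

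PROX1 is also a marker of lymphatic endothelium, heart and nerve cells, whose genes are given beside it. The summed signal of 13 endothelial and lymphatic markers was 1967 and 2118 at day 1 and 255.3 and 377 at day 4. Of 11 tested, KDR and FLI1 fell and PECAM1 rose, where 16.4% of all genes fell and 13% rose. The change of PECAM1 was 1.74 ± 0.46 (35.5 to 104.5, adjusted p = 0.0292, and 0.101 as deposited). As deposited, CDH5, EGFL7, FLI1, FLT4 and KDR fell and 0 rose, where 33.8% of all genes fell and 4.61% rose. The VE-cadherin gene CDH5 was at 4.35 on day 4, and the lymphatic genes LYVE1 and FLT4 at 0.55 and 8.66, all under 9.964, while the podoplanin gene PDPN was at 11.9 ± 16.5 and SOX18 at 136 ± 2.68. The summed signal of 11 heart and neural markers was 1142 and 2007 at day 1 and 125.8 and 173.1 at day 4, and of 9 tested 5 fell and 0 rose, where 16.4% of all genes fell. From the deposited values 6 fell and 0 rose, where 33.8% of all genes fell. MYL3, for a myosin light chain, fell and was still at 45.9 ± 51.7 on day 4. The part of these cells in the PROX1 signal was not tested.

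CREB3L3 was higher on days 3 and 4 than on day 1, and no pair among days 2, 3 and 4 passed. Its signals were 531.4 and 655.1 at day 1, 761.6 and 1193 at day 2, 1246 and 1395 at day 3, and 983 and 1438 at day 4. Every later array lay above both arrays of day 1, and day 4 overlapped days 2 and 3. The change from day 1 was 1.12 ± 0.28 on day 2 (adjusted p = 0.0561), 1.64 ± 0.28 on day 3 (adjusted p = 0.00473) and 1.70 ± 0.28 on day 4 (adjusted p = 0.00508). As deposited, the changes to days 3 and 4 passed as well, at 1.14 ± 0.33 and 0.99 ± 0.33 (adjusted p = 0.0213 and 0.0358). With a filter at the 60th percentile of mean signal the change to day 2 passed narrowly (1.12 ± 0.29, adjusted p = 0.0499). The lower array of day 2 was replicate 1, the one rich in mesoderm markers. Without it the change to day 2 was 1.52, and without both such arrays it was 1.504. Without replicate 2 of day 2 instead it was 0.713, so its size depended on which array of day 2 was kept. Such fits keep 1 array of that day, so sizes alone are given for them. By normalized level the order of the days was 4, 3, 2 and 1 (by deposited means 3, 4, 2 and 1), and no normalized neighbours in that order passed (adjusted p = 0.984, 0.48 and 0.0561).

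XBP1 ran the other way and was highest on day 1. Its brighter probe set read 1867 and 2559 at day 1, 1259 and 1274 at day 2, 1043 and 1050 at day 3, and 1108 and 1378 at day 4. The second, whose name ends in s_at for probes that fit several transcripts, read 1150 and 2010, 1069 and 1002, 899.8 and 804, and 709.3 and 886. With both probe sets, each array of day 1 was above all arrays of the later days. The brighter probe set fell by 0.72 ± 0.16 on the log2 scale from day 1 to day 3 (adjusted p = 0.0139; as deposited by 1.05 ± 0.28, adjusted p = 0.0154). Its change was -0.53 ± 0.16 on day 2 (adjusted p = 0.0998) and -0.31 ± 0.16 on day 4 (adjusted p = 0.21).

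XBP1 was called on day 4 only as deposited. As deposited, the brighter probe set fell by 0.82 ± 0.28 and the second by 0.93 ± 0.32 (adjusted p = 0.0429 and 0.0445), while the second changed by -0.34 ± 0.17 after normalization (adjusted p = 0.189). Neither day 3 call was made for the second probe set (-0.43 ± 0.17, adjusted p = 0.098; as deposited adjusted p = 0.072), and the day 3 call of the brighter one did not pass without either array of day 1 (adjusted p = 0.0902 and 0.0506) or of day 3 (0.0693 and 0.0861), nor without both mesoderm-rich arrays (-0.73, adjusted p = 0.0672). It did not pass with the arrays shifted to a common median either (-0.50 ± 0.21, adjusted p = 0.104). By normalized level of the brighter probe set the order of the days was 1, 4, 2 and 3 (by deposited means 1, 2, 4 and 3), with no normalized neighbours that passed. Signals from these probe sets are read here as total XBP1 mRNA; the spliced form was not analysed here.

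Over all 4 days, the moderated F-test found a difference for CEBPB (adjusted p = 0.00767), CREB3L3 (adjusted p = 0.0131) and PROX1 (adjusted p = 0.0204), that is for 3 of the 5, where 22.9% of all genes passed. CEBPA and the brighter XBP1 probe set came just short (adjusted p = 0.0586 and 0.0557). Of the deposited values PROX1 alone passed (adjusted p = 0.0436), where 27% of genes passed. The F-test calls were lost without either array of day 1, in fits that keep 1 array of that day. The share of all genes called in those fits is not given here. In the separate comparison of day 2 with day 1, CEBPB was the only 1 of 5 called, where 5.22% of genes rose and 2.98% fell, and 4 of the 5 had an unadjusted p under 0.05, as did 22.6% of all probe sets; as deposited 0 were called, with 2.37% and 4.59% of genes. On day 3 against day 1, CEBPA, CEBPB and CREB3L3 rose and XBP1 fell, where 14.5% of genes rose and 18.1% fell; as deposited CEBPA and CREB3L3 rose and XBP1 fell, with 6.7% and 28.1% of genes.

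**Figure D2:**
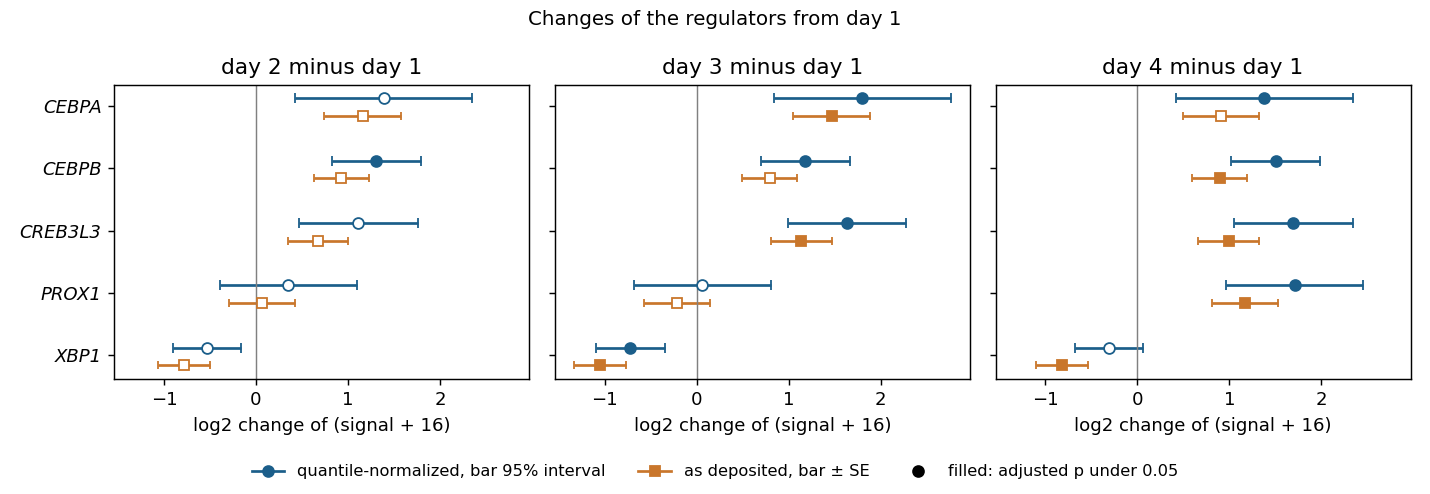
Log2 change of signal + 16 from day 1 (x axis) of each regulator (y axis, brighter probe set) on days 2, 3 and 4; blue circles are normalized values with 95% intervals, orange squares deposited values with SE, filled where the adjusted p is under 0.05. The orange values lie to the left of the blue ones for all 5 genes, and PROX1 leaves 0 on day 4 (1.71 ± 0.33) only.

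No regulator was called between days 2, 3 and 4. Between days 2 and 3, days 2 and 4, and days 3 and 4, limma called 0 of the 23063 probe sets after normalization (0%), with 2924, 3269 and 1476 at an unadjusted p under 0.05; as deposited 0.019% of genes fell between days 2 and 4, no regulator among them. Among the regulators the unadjusted p was under 0.05 for PROX1 between days 2 and 4 and for PROX1 and XBP1 between days 3 and 4. The difference of XBP1 there was 0.41 ± 0.16, a rise in level with a 95% interval of 0.04 to 0.79 (adjusted p = 0.743). These comparisons share samples with each other and with those against day 1.

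Of 11 relatives of the regulators looked up, CEBPG, CREB3L2 and ATF6B were measured, and 1 of the 3 rose from day 1 to day 4, where 13% of all genes rose. CEBPG, a partner of other C/EBP proteins that lacks an activation domain, changed by 0.12 ± 0.20 from day 1 to day 4 (adjusted p = 0.691). CREB3L2, an ER membrane factor of the same family as CREB3L3, changed by 0.47 ± 0.22 (adjusted p = 0.151). ATF6B, a further ER membrane factor of the unfolded protein response, rose from 33.5 ± 0.60 to 55.6 ± 20.5 (1.09 ± 0.31, adjusted p = 0.0374), a call that was not made as deposited (adjusted p = 0.289). The count of relatives called became 0 without either array of day 1, either array of day 3 or day 4 replicate 1.

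Of the ER stress response, in which XBP1 acts, some genes fell and most did not pass. Of 35 genes for its sensors and for the chaperones and translocation proteins among XBP1 targets, 30 were tested, and 8 fell and 0 rose from day 1 to day 4, where 16.4% of all genes fell. The median change was -0.21, against -0.06 over all genes. HSPA5, the main ER chaperone BiP, went from 7329 ± 1386 to 3397 ± 26.7 (-0.82 ± 0.13, adjusted p = 0.00386). HSP90B1, the ER form of HSP90, changed by -0.81 ± 0.13 and DNAJB11, a co-chaperone of HSPA5, by -1.12 ± 0.20 (adjusted p = 0.00433 and 0.00695). SEC61G, a subunit of the translocation channel, changed by -0.82 ± 0.12 (adjusted p = 0.00305).

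The other ER genes that fell were HYOU1, CRELD2, SSR1 and PDIA4. The brightest members that did not pass were SEC61B (8576 over all arrays, -0.16 ± 0.09, adjusted p = 0.237) and ATF4, the factor of the PERK branch (0.15 ± 0.22, adjusted p = 0.665). ERN1, the enzyme that splices XBP1 mRNA and named here after its values were seen, was at 216 ± 72.0 on day 1 and 83.0 ± 1.45 on day 4 (-0.38 ± 0.23, adjusted p = 0.259; as deposited adjusted p = 0.0294). Against day 1, 18.1% of all genes fell on day 3 and 2.98% on day 2 after normalization, and 33.8% on day 4 as deposited. The count of falls among the 30 ER genes was 6 on day 3 and 0 at day 2. Both lay near the shares of all genes, so these counts do not set the ER genes apart. For day 4 it was 13 as deposited and 3 with a common median, a setting for which the share of all genes is not given here. It was also lower when any array of day 1 or day 4 was left out. Such fits keep 1 array of that day, and without day 1 replicate 2 fewer probe sets were called at large too. The share of all genes called in these fits is not given here, so the drop cannot be set against it.

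**Figure D3:**
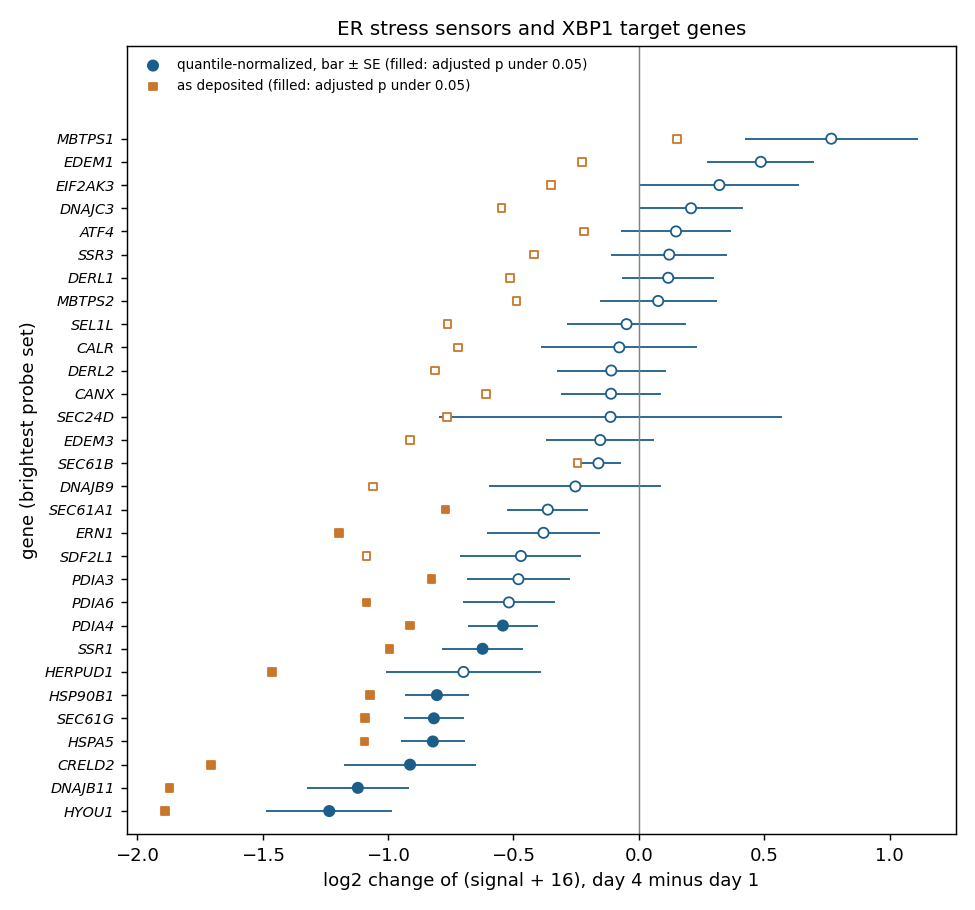
Log2 change of signal + 16 from day 1 to day 4 (x axis) for 30 genes of ER stress and XBP1 targets (y axis); blue circles are normalized values ± SE, orange squares deposited values, filled where the adjusted p is under 0.05. The 8 filled circles lie to the left of 0 and none to the right, and every square lies to the left of its circle.

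Genes that CREB3L3 is known to control in mouse liver rose. Of 12 such genes 7 were on the array and 6 were tested, and all 6 rose from day 1 to day 4, where 13% of all genes rose. This list, like the others, was chosen with earlier results of these data known, so the contrast is a description. The median change was 2.09, against -0.06 over all genes. The lipoprotein gene APOA4 went from 397 ± 116 to 5816 ± 1552 (4.41 ± 0.18, adjusted p = 1.83e-05) and APOA5 from 934 ± 357 to 3092 ± 606 (2.31 ± 0.19, adjusted p = 0.000237). PCK1, for the gluconeogenic enzyme PEPCK, rose by 3.68 ± 0.27 (adjusted p = 0.000152) and CPT1A, for the gate of mitochondrial fatty acid uptake, by 1.87 ± 0.22 (adjusted p = 0.00134). These 4 were also higher on day 2 than on day 1, where 5.22% of all genes were. From the deposited values 3 were, where 2.37% of all genes were, and CPT1A did not pass (adjusted p = 0.0931). CREB3L3 itself lay above day 1 on both day 2 arrays (1.12 ± 0.28, adjusted p = 0.0561). Its part in the rises of these genes was not tested. On the deposited scale 4 of 6 rose on day 4, where 4.61% of all genes did, and CIDEC and PPARA did not pass (adjusted p = 0.284 and 0.168). The seventh gene, G6PC, had a mean signal of 9.25 and was not tested.

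Genes known as C/EBP targets in liver rose or did not pass. Of 22 listed, 18 were on the array and 14 were tested. From day 1 to day 4, 9 rose and 0 fell, where 13% of all genes rose and 16.4% fell. As deposited 8 rose and 0 fell, where 4.61% of all genes rose and 33.8% fell. The median change was 1.60, against -0.06 over all genes. CPS1, for the first enzyme of the urea cycle, rose from 31.3 ± 3.18 to 1597 ± 452 (5.55 ± 0.35, adjusted p = 7.97e-05) and ASS1, for a later enzyme of that cycle, by 3.18 ± 0.20 (adjusted p = 7.89e-05). FGA, for a fibrinogen chain, rose by 3.06 ± 0.30 (adjusted p = 0.000578), and PCK1, listed here too, as given above. TTR, for transthyretin, and FABP1, for the liver fatty acid binding protein, did not pass (0.05 ± 0.09 and -0.31 ± 0.51, adjusted p = 0.722 and 0.695). Against day 1, 8 of the 14 were higher on day 2 and 10 on day 3, where 5.22% and 14.5% of all genes were. From the deposited values these counts were 7 and 10, where 2.37% and 6.7% of all genes rose. ORM1, TAT, LPIN1 and G6PC were under the signal admitted to the tests.

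Other factors of the hepatic network rose, fell or did not pass. Of 18 listed, 13 were on the array and 12 were tested; 7 rose and 1 fell from day 1 to day 4, where 13% of all genes rose and 16.4% fell. The median change was 0.83, against -0.06 over all genes. PPARA, a receptor for fatty acids, rose by 1.53 ± 0.34 (adjusted p = 0.0144) and NR1H3, a sterol receptor, by 0.84 ± 0.20 (adjusted p = 0.0194). RXRA, the shared partner of PPARA and NR1H3, rose by 0.83 ± 0.23 (adjusted p = 0.0313). GATA6, an endoderm zinc finger factor, rose by 1.30 ± 0.32 (adjusted p = 0.0205). The gene that fell was HHEX, a homeobox factor of early endoderm and of blood vessel precursors, from 2843 ± 121 to 30.6 ± 3.85. Its signals were 938.8 and 39.53 at day 2 and 176.8 and 24.38 at day 3. The higher array of each pair was the mesoderm-rich replicate 1. The part of other tissue in the fall of HHEX was not tested. FOXA2 and FOXA1, pioneer factors of endoderm, did not pass (0.83 ± 0.39 and 0.70 ± 0.41, adjusted p = 0.158 and 0.247). As deposited 0 of these genes rose (limma) and HHEX fell, where 4.61% of all genes rose and 33.8% fell. The fall of HHEX did not pass without either array of day 1 or without day 4 replicate 1, where the count of falls was 0. Most or all of the 7 rises lost their call when an array of day 1 or day 4 was left out. Such fits keep 1 array of that day, and the share of all genes called in them is not given here.

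**Figure D4:**
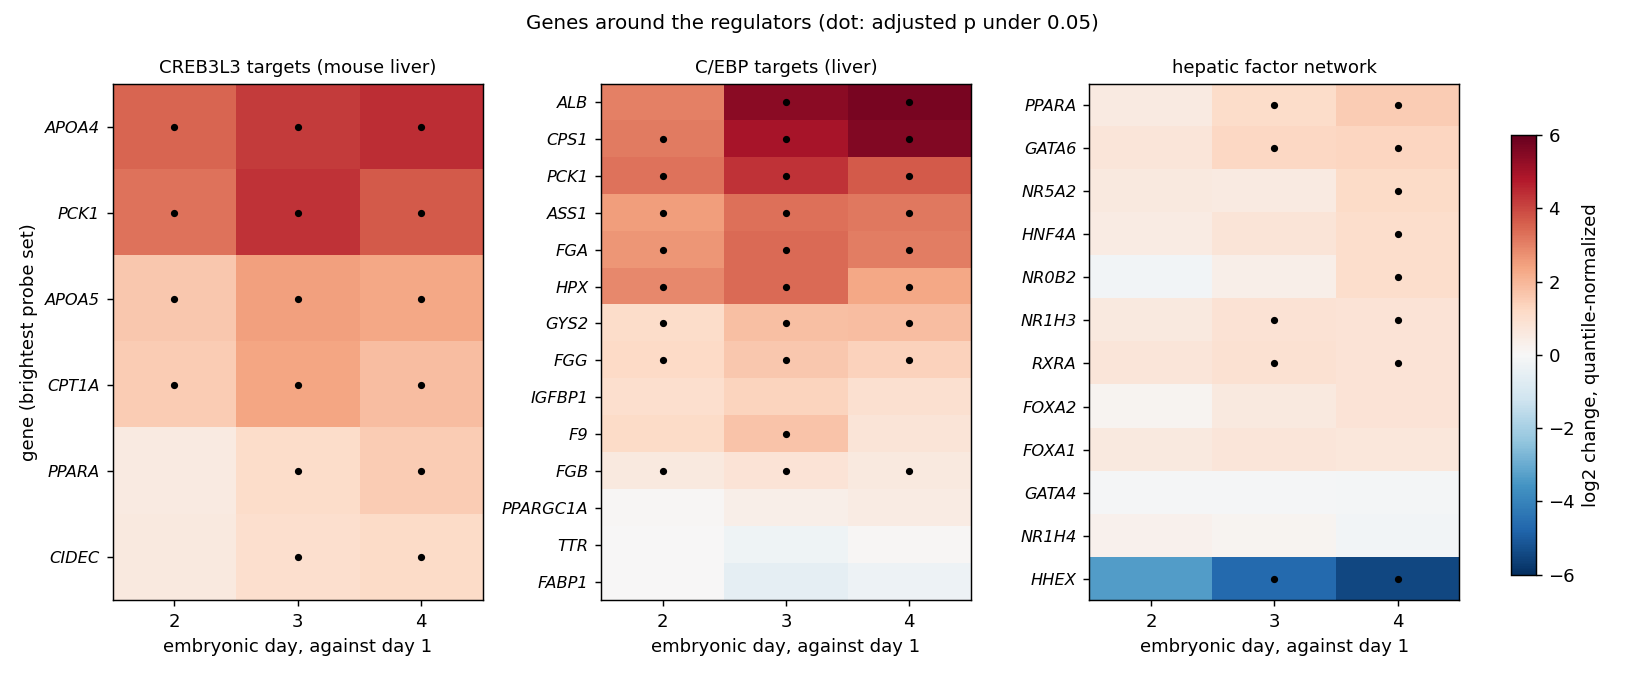
Normalized log2 change of signal + 16 against day 1 (colour, red higher, blue lower) on days 2, 3 and 4 (x axis) for the tested genes of 3 lists (y axis); a dot marks an adjusted p under 0.05. All 6 CREB3L3 targets carry a dot on days 3 and 4, 9 of 14 C/EBP targets do on day 4, and HHEX is the blue row of the hepatic network.

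The genes most like each regulator were sought among 5114 probe sets whose day means spanned at least 1 on the log2 scale, by Pearson's r over the 8 arrays. The arrays share their labelling and scaling, and the genes were picked as the highest of many, so these values of r are descriptions. CREB3L3 was matched by MIA2, for an ER export protein (r = 0.995), by BCHE, for butyrylcholinesterase (r = 0.991), and by STRA6, for the receptor of retinol binding protein (r = 0.989). MIA2 read 51.71 and 63.6 at day 1, 66.62 and 100.5 at day 2, 106 and 107.8 at day 3, and 78.49 and 112.7 at day 4, so that it shared with CREB3L3 the lower replicate 1 of days 2 and 4.

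CEBPA was matched by CCDC93, for a protein of endosomal recycling (r = 0.993), by DENND5B (r = 0.989) and by GPAM, for the first enzyme of triglyceride synthesis (r = 0.987). CCDC93 read 775 and 296.1 at day 4, a split in the same direction as that of CEBPA. CEBPB was matched by TRIM25, for a ubiquitin ligase (r = 0.987), by SFTPA2 (r = 0.986) and by IL20RA, for a cytokine receptor chain (r = 0.985). XBP1 was matched by ABI3 (r = 0.985), by GNB1L (r = 0.97) and by PES1, for a factor of ribosome assembly (r = 0.968), whose mean signal went from 1129 on day 1 to 355.2 on day 3.

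PROX1 had the lowest likeness of the 5. Its nearest genes were PECAM1 (r = 0.949, by a second PECAM1 probe set at 92.11 and 47.42 at day 4), ELMSAN1 (r = 0.937) and JUN, for a subunit of the AP-1 factor (r = 0.933). JUN read 548.2 and 649 at day 1, 584.2 and 364.3 at day 2, 435.8 and 378.2 at day 3, and 1564 and 1699 at day 4, so both day 4 arrays stood above all others there as well. On the deposited scale the r of ELMSAN1 was 0.686.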

How the data were processed

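The deposited values were signal intensities made by the authors with MAS5, per the submitters' processing notes, on a linear scale; the sources used here do not give its version, scaling target or detection calls. Per the labels' protocols, 5 µg of total RNA per array was labelled in a single cycle. Array totals differed, so intensities were taken as log2(signal + 16), which understates changes of low genes, and quantile-normalized. Of 38535 probe sets 96 controls were left out; 23063 above the 40th percentile of mean signal were tested, for 10553 genes. Of the 38439, 27168 had 1 symbol, 177 several and 11094 none; 26853 matched the chicken reference table. The fit over all 8 arrays used a day factor in limma 3.58.1 under R 4.3.3 (intensity trend in eBayes, 4 residual and 4.657 prior degrees of freedom), with Benjamini-Hochberg adjustment at 0.05; the code was tested on simulated data. With 2 arrays a day precision is limited. Replicates of a day correlated at 0.943 to 0.977 and shared 0 values.

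The members, the gene lists and the choice of normalization were made with earlier results of these data known. Named were all regulators and measured relatives, the 3 genes most like each regulator, up to 4 genes of a list in each direction by adjusted p with up to 2 bright ones that did not pass, and the brightest markers; ALB, ERN1, the other ER genes that fell and further markers were named after their values were seen. PCK1, PPARA, TTR, G6PC, ATF6, DDIT3 and ONECUT2 stand in more than 1 list. Figures used matplotlib 3.10.9.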

Additional observations from a re-analysis of the deposited data

How the results depend on the processing

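The counts of regulators called moved under several settings. For day 2 against day 1 the count was 1, and it was 0 as deposited (also without day 1 replicate 2) and 2 with a common median, a 60th percentile filter, only the 2 days compared or both arrays rich in mesoderm markers left out; leaving out each array gave 0 to 2. For day 4 against day 1 the 4 calls became 1 to 4 with each array left out and 0 as deposited without day 1 replicate 2, an alternative chosen after seeing the data, like that of the mesoderm-rich arrays and all list counts. The F-test called 3, against 1 as deposited, 0 as deposited without day 1 replicate 2, and 0 to 4 with each array left out. Over all probe sets, 1354 calls on day 2 became 892 with no filter, 224 to 1855 with each array left out and 222 as deposited without day 1 replicate 2; 5284 on day 4 became 1443 to 5860 and 1685. Between days 2 and 3 and between days 3 and 4, 0 calls became 0 to 24 and 0 to 8.

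Among log2 changes of single probe sets 684 values kept direction and call, 38 lost the call, 9 gained it and 19 changed sign, none of them called. From day 2 to day 4 CEBPA was 0.034 with a pseudocount of 64 and -0.748 to 0.718 with each array left out, CEBPB was -0.031 as deposited with or without day 1 replicate 2, -0.082 to 0.464 with each array left out and -0.085 without both mesoderm-rich arrays, and XBP1 was -0.035 as deposited with or without day 1 replicate 2. From day 3 to day 4 CEBPA was -1.168 to 0.305 and CREB3L3 -0.153 to 0.268 with each array left out, CREB3L3 was -0.147 as deposited with or without day 1 replicate 2, and the second XBP1 probe set was -0.100 as deposited with or without day 1 replicate 2. CEBPB from day 2 to day 3 was -0.403 to 0.149 and PROX1 from day 1 to day 3 was -0.134 to 0.259 with each array left out, and PROX1 was -0.216 as deposited and -0.238 so without day 1 replicate 2. The causes were not tested.

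The labels do not say that replicate numbers pair the samples, and deviations of same-numbered arrays correlated at -0.114 to 0.38 over pairs of days, the highest being days 2 and 3, whose replicate 1 arrays are the mesoderm-rich ones. Summed erythroid and endothelial markers were higher on replicate 1 on all 4 days. With the replicate block, the day 4 change of CEBPA stayed at 1.381 and missed the threshold (adjusted p = 0.0548), which made 3 regulators called on day 4; the counts were 1110 probe sets on day 2 and 4861 on day 4. No other regulator's call changed. The low signals of CEBPA and PROX1 limit the precision of their changes, whose size depends on the 16 added.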

Other observations

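The day 4 samples split the regulators by replicate. Replicate 1 was higher for CEBPA (71.74 against 19.94) and PROX1 (102.6 against 53.38), and the albumin gene ALB was at 4366 and 565.1 there. Replicate 2 was higher for CEBPB (2128 against 1609), CREB3L3 (1438 against 983) and XBP1 (1378 against 1108). These directions were not all particular to day 4. By deposited signal replicate 2 was also the higher on every other day for CREB3L3 and the brighter XBP1 probe set. The same held for CEBPB on days 1 and 2, and replicate 1 was the higher for PROX1 on those days. Array brightness enters here, as day 1 replicate 2 was the brightest array. After normalization replicate 1 was the higher on day 1 for CREB3L3 (487.9 against 373.2) and CEBPB (797 against 713.7). The same was true of the brighter XBP1 probe set on day 1 (1959 against 1697) and, narrowly, on day 3 (1108 against 1092). HNF4A, the central factor of the hepatic network, differed less, at 1979 and 2147, and APOA4 was at 6914 and 4719. With 1 array on each side these differences have no test.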
